A study of Homo sapiens with 2 samples.

Results

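The genes CDH1, CDH2, VIM and FN1 were examined in 1 list of 105637 peak summits from a chromatin immunoprecipitation of Myocardin (MYOCD). A summit was assigned to a gene when it lay in the gene's span or in the 20 kb on either side, and 15 summits of the list met this rule. CDH1 held 8 of them, CDH2 held 2, VIM held 2 and FN1 held 3. The cells were A549, a human lung adenocarcinoma line, stably overexpressing MYOCD from the lentiviral vector pWPI, and both immunoprecipitations were made from this overexpressing line. Anti-Myocardin and nonspecific IgG gave 1 library each, with no replicate and with no cells lacking the transgene among the samples. The list ties no summit to either antibody, so no summit below carries an IgG value. Sequencing depth is unknown. Whether a given summit reflects Myocardin or background signal was therefore not tested.

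Epithelial-mesenchymal transition is the change by which epithelial cells loosen their junctions and take on a migratory, fibroblast-like form. E-cadherin, encoded by CDH1, holds epithelial cells together at adherens junctions and is the classical epithelial marker. N-cadherin (CDH2), the intermediate filament protein vimentin (VIM) and the matrix glycoprotein fibronectin (FN1) are the usual mesenchymal markers. Myocardin is a coactivator that works through the serum response factor, which binds the CArG boxes of smooth and cardiac muscle genes.

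All 4 genes had a summit within 5 kb of the 5′ end of their span, and in all 4 that summit lay just inside the gene and had the highest score of its locus. For each gene this is also the summit nearest the 5′ end. The distance from the 5′ end was 30 bp in CDH2, 292 bp in CDH1, 431 bp in FN1 and 1309 bp in VIM. The peak score, which is the authors' own value for each peak, has no unit in the deposited list and serves here only to rank summits. It was 18.1 at VIM, 15.4 at CDH1, 13.6 at CDH2 and 8.28 at FN1. The first 3 of these lay in the top 25% of the list, above a score of 12.2, and the one at FN1 did not. None of the other 11 summits of the 4 loci reached the top 25%.

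**Figure D1:**
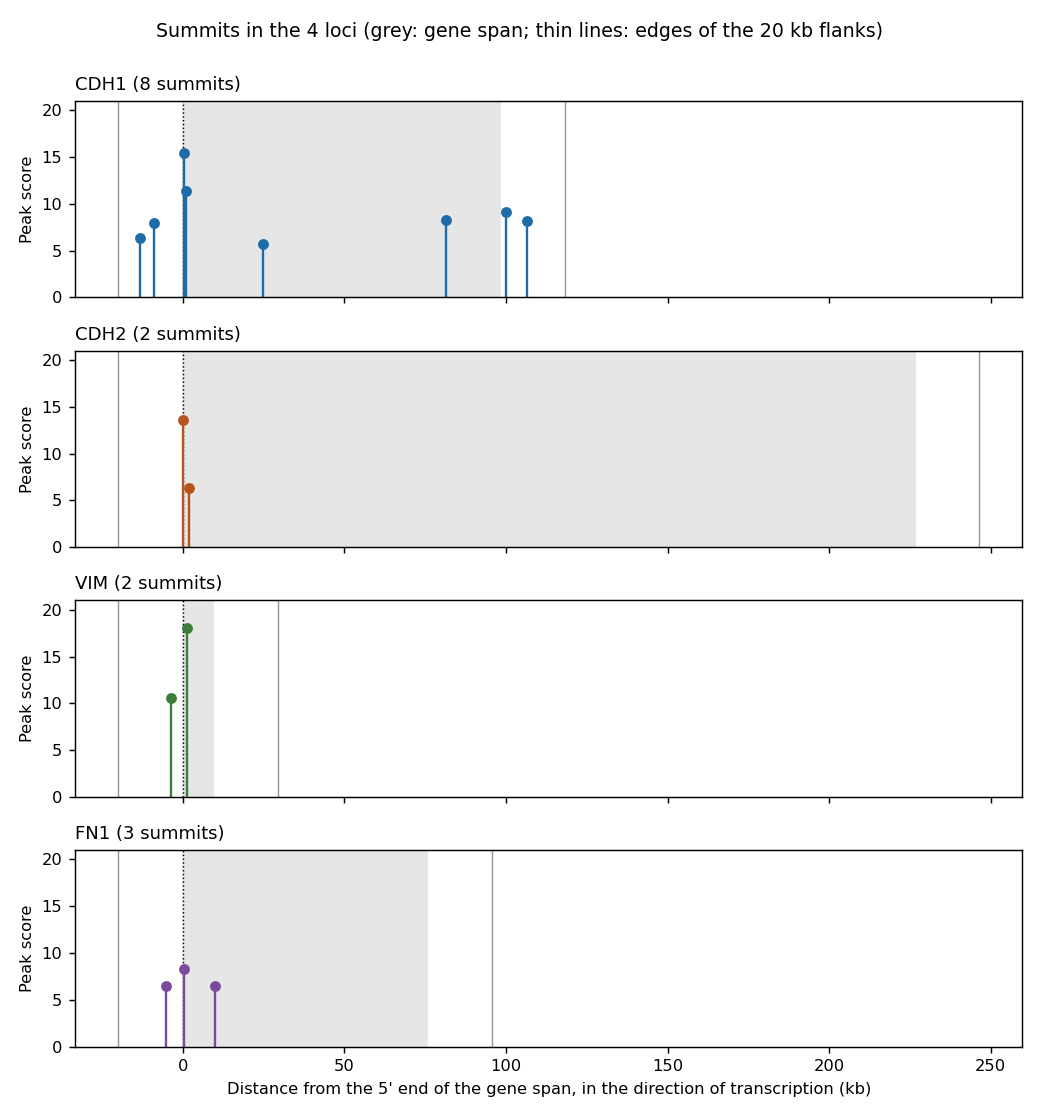
Peak score of each summit against its distance in kb from the 5′ end of the gene span, in the direction of transcription, for CDH1, CDH2, VIM and FN1; grey marks the gene span and thin lines the outer edges of the 20 kb flanks. In each locus the tallest stem is the one nearest the 5′ end, and CDH2 has no summit beyond 1.85 kb into the gene.

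Over the 4 loci together, summits were denser at the gene starts than elsewhere. The stretches within 5 kb of a 5′ end made up 7.02% of the 570 kb examined and held 7 of the 15 summits. CDH1, CDH2 and VIM each had 2 summits in that stretch and FN1 had 1. Taken gene by gene, the 95% exact Poisson intervals of the density at the start and in the rest of the locus overlapped at CDH1 (2.42 to 72.2 and 1.72 to 10.2 per 100 kb), VIM (2.42 to 72.2 and 0 to 9.38) and FN1 (0.253 to 55.7 and 0.229 to 6.84). At CDH2 they did not (2.42 to 72.2 and 0 to 1.44). By position, 9 summits lay in gene spans, 4 in upstream flanks and 2 in downstream flanks, both of the latter at CDH1. The distance from the start was set against points placed every 1 kb along the same chromosome. On chromosome 18, 0.109% of points had a summit as near as that of CDH2, and the median distance was 21.5 kb. For CDH1, 3.24% of points on chromosome 16 had a summit as near, with a median distance of 6.92 kb. For FN1, 3.21% of points on chromosome 2 had one as near, with a median of 11.4 kb. For VIM the share was larger, with 10.8% of points on chromosome 10 having a summit as near and a median of 9.16 kb. Points are centres of windows as long as the locus, and windows touching a summit-free stretch of 1 Mb or more were left out. The starts of other genes were not measured here, because no GRCh37 annotation was used, so a summit at the start cannot be called particular to these genes. Distances refer to the 5′ end of the span, and any further start inside a span was not considered.

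The promoters of FN1 and VIM are shown because both genes had a summit near the start while their sequences differ in base composition. They are the 250 bases before the start of the RefSeq gene on GRCh38.p14, on the gene's own strand, 5′ to 3′. The summit positions are on GRCh37, so a summit cannot be placed on these letters. Capitals mark a cAMP response element, TGACGTCA, in FN1. No motif searched was found in the VIM window.
FN1 promoter, chr2:215436069-215436318, minus strand: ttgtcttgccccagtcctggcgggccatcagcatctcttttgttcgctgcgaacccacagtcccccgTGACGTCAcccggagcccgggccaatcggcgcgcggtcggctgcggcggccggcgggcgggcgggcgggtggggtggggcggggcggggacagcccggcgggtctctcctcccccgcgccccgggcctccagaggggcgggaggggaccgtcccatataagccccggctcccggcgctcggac
VIM promoter, chr10:17227991-17228240, plus strand: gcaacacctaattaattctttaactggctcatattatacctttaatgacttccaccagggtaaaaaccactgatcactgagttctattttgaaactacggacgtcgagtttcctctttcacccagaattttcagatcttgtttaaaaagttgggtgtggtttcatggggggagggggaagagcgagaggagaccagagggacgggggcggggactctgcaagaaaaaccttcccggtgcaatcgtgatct

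The search covered both strands of the same 250 bases in 35116 RefSeq promoters. Its motifs were the CArG box of the serum response factor, CACCTG (ZEB and SNAI repressors), CATTCC (TEAD factors), TGANTCA (AP-1), TGACGTCA (CREB) and CAGACAGA (SMAD factors). TGACGTCA was present in 1.65% of all promoters, and in FN1 it began 183 bases before the start. The CArG box was present in 1.16% of all promoters and in none of those found for CDH2, VIM and FN1, which says only that its letters are not in these windows. The ZEB and SNAI motif, the TEAD motif and the SMAD motif, present in 17.5%, 11.9% and 1.29% of promoters, were likewise not found there. CDH2 had 2 promoter entries, the second of them inside the gene and away from its outer start, and neither need begin at the 5′ end used for the summits. TGANTCA, present in 6.57% of promoters, was found only in the second, 102 bases before its start. The search allowed any base at N, and the match there reads TGAATCA. Whether AP-1 binds these letters was not tested. No promoter entry was matched for CDH1. The FN1 window was 76.4% G and C with 32 CG pairs, and 8.10% of promoters had a G and C content at least as high. The first CDH2 window was 66% G and C with 17 CG pairs. The VIM window was 46% G and C with 8 CG pairs, below the median over promoters of 58% and 11 CG pairs. It lies before the start of the RefSeq entry used, and any other VIM start was not examined. A match is a description of the letters, and occupancy of any of these motifs was not tested.

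CDH1, at chr16:68771195-68869444 on the plus strand, had the most summits of the 4 loci. The strongest lay at position 68771487, 292 bp into the gene, with a score of 15.4, which 11.7% of the summits of chromosome 16 reached. A second followed only 679 bp further on at 68772166, with a score of 11.3, the second highest of the locus. Both lay within 5 kb of the start of the gene, and the other 6 summits of the locus lay further from it. Upstream of the gene lay 2 summits, at 68762171 with a score of 7.94 and at 68757936 with a score of 6.35. The gene next to CDH1 on that side in the RefSeq table is CDH3, which encodes P-cadherin, another classical cadherin.

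Inside the CDH1 gene, beyond the start, the list held a summit at 68795922 with a score of 5.75, the lowest of the locus, and 1 at 68852625 with a score of 8.23. Between these lay 56.7 kb without a summit, 57.7% of the gene span. A stretch at least that long touched 49.4% of the windows of the length of the gene on chromosome 16, so this was ordinary there. Past the 3′ end were summits at 68871092, with a score of 9.08, and at 68877623, with a score of 8.14. The next coding gene on that side is TANGO6. Both summits count toward CDH1 only by the 20 kb rule, and which gene they act on was not tested. The CDH1 flanks held 10 summits per 100 kb on each side (95% exact Poisson interval 1.21 to 36.1, from 2 summits) and the gene span 4.07 (1.11 to 10.4, from 4), so the intervals overlap widely. All intervals given here cover counting error only and treat summits as independent.

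CDH2, at chr18:25530930-25757445 on the minus strand, was laid out differently from CDH1. Its 2 summits both lay at the start. The stronger was at 25757415, 30 bp into the gene, with a score of 13.6, which 14.4% of the summits of chromosome 18 reached. The weaker was at 25755594, 1851 bp into the gene, with a score of 6.33. The remaining body of the gene and both 20 kb flanks held none. From 25755594 the next summit toward the 3′ end lay 432 kb away, at 25323298, beyond the gene and its flank. This stretch took in 99.2% of the gene span. On chromosome 18, 14% of windows of the length of the gene touched a stretch at least as long, and the median of their longest stretches was 172 kb.

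VIM, at chr10:17270258-17279592 on the plus strand, is the shortest of the 4 genes, with a span of 9.34 kb. It carried the highest score among the 15 summits, 18.1 at position 17271567, which 8.97% of the summits of chromosome 10 reached. This summit lay 1309 bp into the gene. A second lay 3588 bp before the start, at 17266670, with a score of 10.6, reached by 34.3% of the summits of that chromosome. Both VIM scores were above the median of the rest of chromosome 10, 8.61. The antisense gene VIM-AS1 overlaps VIM in the RefSeq table, and the list's single strand value cannot assign a summit to either. After the summit at 17271567 no other followed for 43.2 kb. On chromosome 10, 55.9% of windows of the length of the gene touched a stretch at least as long.

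FN1, at chr2:216225179-216300791 on the minus strand, had the lowest highest score and the lowest median score of the 4 loci, though CDH1 and CDH2 each held a lower single score. The one nearest the start lay at 216300360, 431 bp into the gene, with a score of 8.28. The other 2, at 216305863, 5.07 kb before the start, and at 216290971, 9.82 kb into the gene, had the same score of 6.49. All 3 scores were below the median of the rest of chromosome 2, 8.96, and 58.2% of the summits of that chromosome reached the highest of them. Beyond 216290971 the gene held none, with 97.8 kb free of summits from there to 216193152. This stretch took in 87.0% of the gene span. A stretch at least that long touched 41.7% of windows of the length of the gene on chromosome 2. In the RefSeq table FN1 overlaps FN1-DT, a noncoding gene at its start, and ATIC, a purine synthesis gene at its far end.

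All 3 FN1 scores were among the 19 values that are each carried by at least 150 summits of the list. Exactly 8.28260 was carried by 4016 summits and 6.49204 by 3569. Over the 4 loci this made 3 of 15 summits (20%, exact Clopper-Pearson 95% interval 4.33% to 48.1%), near the 29.4% of the whole list. None of the 12 summits at CDH1, CDH2 and VIM carried one. Outside the loci, such values made up 15.9% of the summits of chromosome 16 (CDH1), 39.8% of chromosome 18 (CDH2), 27.1% of chromosome 10 (VIM) and 32.3% of chromosome 2 (FN1). The difference between the genes was not tested. At CDH1, CDH2 and VIM each score was shared by 5 to 48 summits in all. How such repeated scores arose was not tested.

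**Figure D2:**
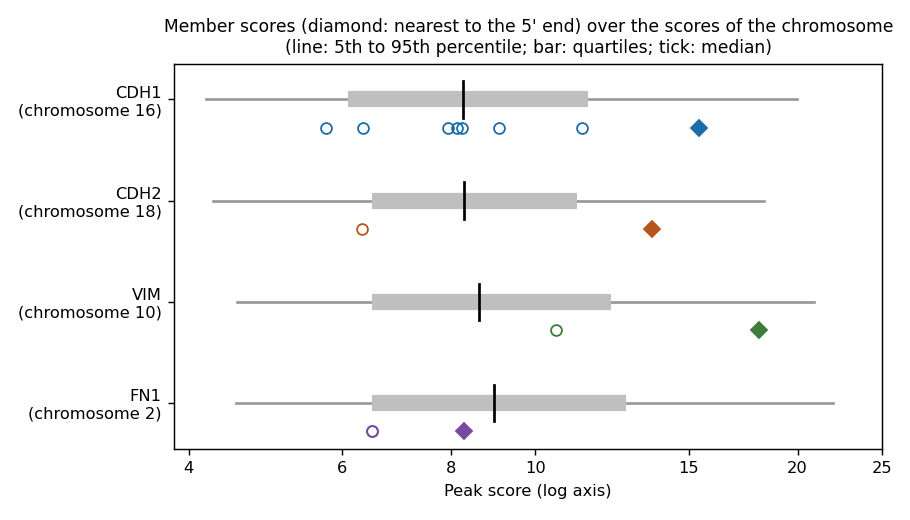
Peak scores (log axis) of the summits of each gene, with a diamond for the summit nearest the 5′ end and circles for the others, under the distribution of all scores of its chromosome (line, 5th to 95th percentile; bar, quartiles; tick, median). The diamonds of CDH1, CDH2 and VIM lie to the right of the quartile bar, and that of FN1, at 8.28, lies left of the median of chromosome 2; the 2 other FN1 summits share the circle at 6.49.

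Over all 15 summits the median score was 8.23, against 8.50 for the list, so the loci as a whole were not high in score. The share in the top 25% was 20% (3 of 15, exact Clopper-Pearson 95% interval 4.33% to 48.1%). None of the 15 reached a score of 30, while the list runs up to 281.39. By locus the median score was 14.3 at VIM, 9.97 at CDH2, 8.19 at CDH1 and 6.49 at FN1, from 2, 2, 8 and 3 summits. Relative to the rest of the chromosome these were 1.66, 1.20, 0.992 and 0.724 times the median. With so few summits the order of these medians has no error that could be estimated. As a check on the highest score, windows of the same length as the locus were laid every 1 kb along the chromosome. A score at least as high occurred in 53.1% of such windows for CDH1, in 53% for CDH2, in 17.3% for VIM and in 84.2% for FN1. A maximum like that of CDH1 or CDH2 was therefore ordinary for a window of that length, and the one at VIM was less so.

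The number of summits was at the median of the same windows at VIM (2) and FN1 (3). It was above the median of 6 at CDH1. At CDH2 it was below the median of 4, at the lower quartile of 2. The windows took the place of random windows and left out stretches of at least 1 Mb without a summit. CDH1, with 8 summits in 138 kb, stood at 1.04 times the mean of 7.70 per window on chromosome 16 (95% exact Poisson interval of the fold 0.449 to 2.05), and 45.2% of windows held at least as many. VIM, with 2 in 49.3 kb, stood at 0.913 times the mean of 2.19 on chromosome 10 (0.111 to 3.30), and 52.3% of windows held at least as many. FN1, with 3 in 116 kb, stood at 0.690 times the mean of 4.35 on chromosome 2 (0.142 to 2.02), where 59.2% held at least as many and 53.7% at most as many. CDH2, with 2 in 267 kb, was lowest at 0.335 times the mean of 5.97 on chromosome 18 (0.0406 to 1.21). There 82.1% of windows held at least as many and 31.8% at most as many. All 4 intervals include 1 in this setting. At CDH2 the upper bound fell below 1 with 50 kb flanks, at a fold of 0.274 (0.0332 to 0.989), and against windows of all autosomes, at 0.198 (0.0240 to 0.716). Both intervals cover counting error in 2 summits and not the spread among windows. The share of windows with as few summits was not computed in these settings. Windows of all autosomes had a mean of 10.1, against 5.97 on chromosome 18. The windows were not matched on gene content or base composition, and the part of either in these values was not tested.

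**Figure D3:**
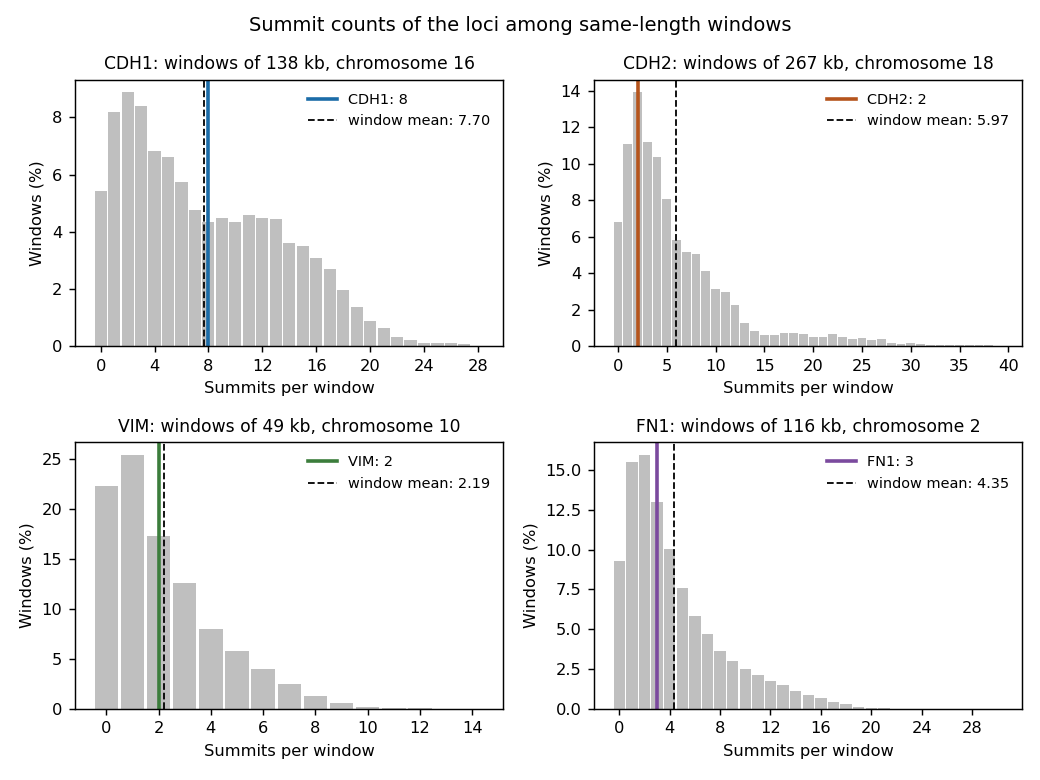
Share of same-length windows on the same chromosome (vertical axis, percent) by number of summits per window (horizontal axis), with the count of the locus as a coloured line and the window mean as a dashed line. The line of CDH1, at 8, lies close to the mean of 7.70, and that of CDH2, at 2, lies left of the mean of 5.97 but inside the bulk of the windows.

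Between genes, CDH1 and CDH2 were furthest apart. CDH1 had 5.79 summits per 100 kb (95% exact Poisson interval 2.50 to 11.4) and CDH2 had 0.75 (0.0909 to 2.71), while VIM had 4.05 (0.491 to 14.6) and FN1 had 2.59 (0.535 to 7.58). The density at CDH1 was 7.71 times that at CDH2 (exact conditional 95% interval 1.54 to 74.5). This interval was 1.01 to 193 when widened for the 6 pairs of genes. The intervals of the other 5 pairs included 1, which does not show that those genes were alike. The chromosomes themselves differed, since windows on chromosome 16 held 2.49 times as many summits per length as those on chromosome 18. After division by that ratio CDH1 stood at 3.10 times CDH2, with an interval of 0.619 to 29.99 that includes 1.

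The regions around the genes differed in the same order at their extremes. Within 1 Mb of the 5′ end there were 138 summits around CDH1, 61 around FN1, 39 around VIM and 14 around CDH2. Outside the locus itself this region held 6.98 summits per 100 kb at CDH1 (95% exact Poisson interval 5.83 to 8.29) and 0.692 at CDH2 (0.358 to 1.21). The values were 3.08 at FN1 (2.34 to 3.98) and 1.90 at VIM (1.34 to 2.61). For each of the 4 genes the interval of the locus includes the density around it. Copy number, which is altered in A549, was not measured in these data.

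The start summits were also ranked by score among their surroundings. At CDH2 the score of 13.6 was the 4th highest of the 14 summits within 1 Mb, of which the highest was 23.2. At VIM the start summit was also the 4th highest, of 39, with a highest score of 18.8. The start summit of CDH1 ranked 15th of 138, below a highest score of 30.1, and that of FN1 ranked 39th of 61, below 27.0. The nearest summit of the top 25% to the FN1 start lay 78.7 kb away.

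**Figure D4:**
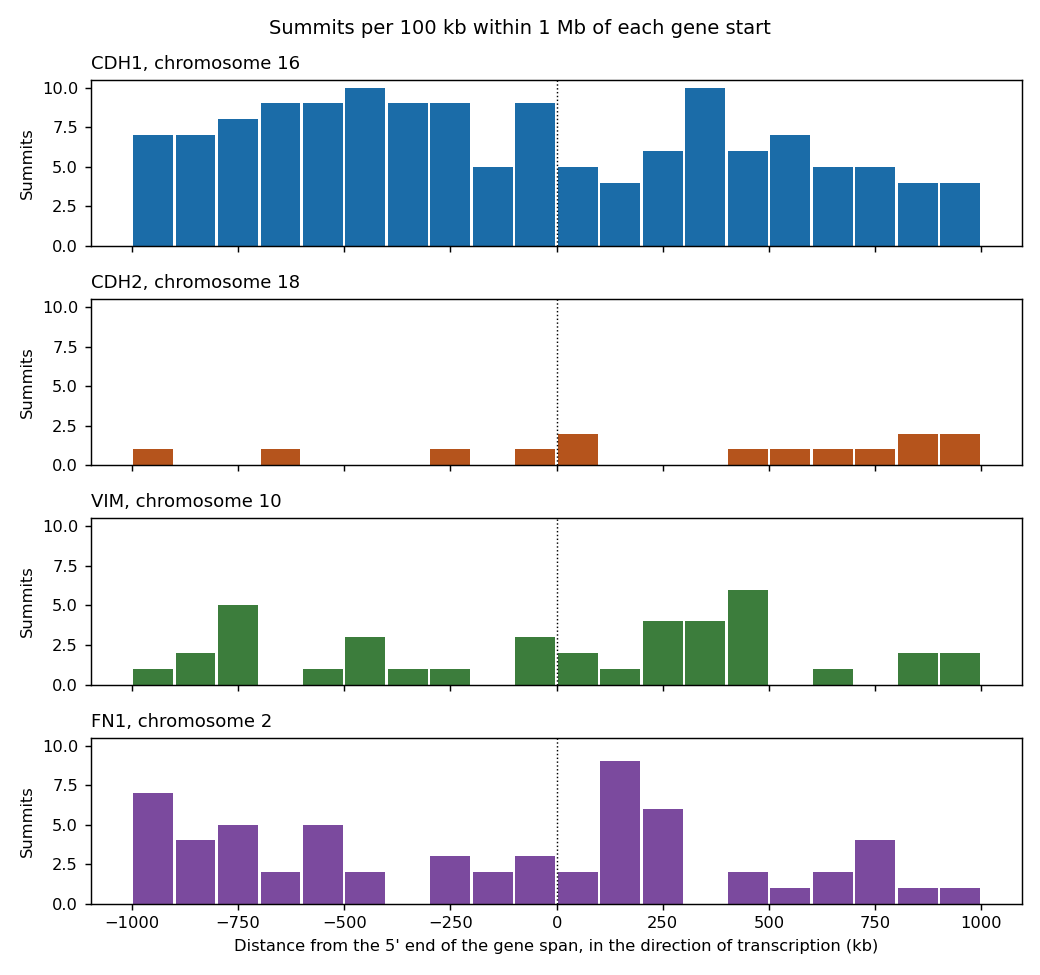
Number of summits per 100 kb bin (vertical axis) by distance in kb from the 5′ end of the gene, in the direction of transcription, over 1 Mb on either side. Bins around CDH1 hold 4 to 10 summits each, and bins around CDH2 hold 0 to 2.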

How the data were processed

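Chromatin of A549 cells overexpressing MYOCD was precipitated with anti-Myocardin or IgG, 1 library each. The authors deposited a single list of positions, each with a score, per the file headers. Intervals span 1 bp, and the end was taken as the 1-based summit. The list is named after the peak caller MACS; its version and threshold, the aligner and the role of the IgG library are not given in the sources used. Named in the submitters' processing notes are CASAVA 1.4 and the assemblies mm9 and GRCh38.p12. On GRCh38, 1093 summits lie past a chromosome end, and on GRCh37 0 do (chromosome lengths from GenomeInfoDb 1.38.1), so GRCh37 was used. Columns of per-sample values left out number 0.

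Gene spans and 20 kb flanks were given together with the gene list, and strands were taken from RefSeq (for CDH1 from general knowledge). The genes, motifs and alternatives were chosen with earlier results of these data known. Every gene of the rule is named, and every summit in a locus of at most 15. Windows of locus length were placed every 1 kb from the first to the last summit on a chromosome, leaving out those that touch a summit-free stretch of 1 Mb or more, and the counting was tested on simulated data. The planned count over other genes of the pathway was not made, as it needs GRCh37 coordinates not used here. Shares use Clopper-Pearson and counts Poisson 95% intervals (Python 3.11.15, scipy 1.17.1). With 1 library per antibody no test across samples was possible. Alternatives were the top 25% of scores, other flanks, other window sets, other reference scores and merged summits. G and C content, CG pairs, stretches between summits, surroundings, highest scores per window, ratios between genes and shared scores were measures added after the list was seen. The density within 5 kb of a 5′ end, set against the rest of the locus, was likewise not in the plan.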

Additional observations from a re-analysis of the deposited data

How the results depend on the processing

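Of 40 alternatives over 12 results, 34 left the value within its interval, within 5% of it for score ratios, or identical for distances. The intervals rest on few summits and are wide, so a value within them says little about stability. Of the 28 for summit counts, 27 did so, though 8 of them lay on the other side of 1, which the intervals of all 4 loci include in the setting reported. Of the 28, 2 had an interval of their own that excludes 1, both at CDH2: with 50 kb flanks (0.274, 0.0332 to 0.989) and against windows of all autosomes (0.198, 0.0240 to 0.716). Both cover counting error only and not the spread among windows. The exception among the 28 was FN1, whose count and fold were 0 over the top 25% of scores. Windows held a mean of 1.23 such summits there, and the interval of the fold, 0 to 3.00, includes 1. In that setting the summit nearest the FN1 start was 78688 bp away in place of 431. CDH1 lay below 1 over the top 25% of scores (0.579), without flanks (0.731), with 50 kb flanks (0.906) and with summits within 1 kb merged (0.969, an alternative chosen after seeing the data). VIM lay above 1 over the top 25% (1.71), without flanks (2.41) and against windows of all autosomes (1.07), and FN1 with 50 kb flanks (1.21). CDH2 stayed below 1 in all 7 settings, from 0.198 to 0.752. Without flanks the median score relative to the rest of the chromosome was 1.18 at CDH1, 2.10 at VIM and 0.824 at FN1, and against all autosomes it was 0.762 at FN1. The cause of these shifts was not tested. No paired analysis was possible because each antibody had 1 library, and no replicate could be left out. The depth of the libraries is unknown.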
